A study of Bos taurus with 12 samples.

Results

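The genes described here are those whose names place them in the sperm tail, the motor proteins, the centrosome, the septin and myosin families, or among genes named for sperm or testis. A gene was taken when a listed locus on chromosomes 1 to 29 lay within 10 kb of one of its annotated features and its full name held 1 of 12 terms. The terms were cilia and flagella, CFAP20, dynein, kinesin, intraflagellar, centrosomal, centriole, tubulin, septin, myosin, sperm and testis. This gave 62 genes of the 2223 named genes found near a locus by the same limits, and of 3513 genes named anywhere in the data. Of the 62, 55 had single CpG sites (78 sites), 9 had windows of 500 bp (31 windows, called tiles) and 2 had both. Because the choice rests on words in names, it also takes in muscle proteins, such as myosin binding protein C1, and nuclear proteins, such as testis expressed 10.

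The study asked how the methylation of bull sperm DNA relates to the fertility of the bulls' daughters. It used EM-seq, a form of methylation sequencing that converts unmethylated cytosines with enzymes instead of bisulfite. The 12 samples were 6 labelled high daughter fertility and 6 labelled low daughter fertility, all sperm of male Bos taurus, and the labels used here name no breed, age, treatment, batch or pairing. Both tables compare the groups as the authors did, and list for each locus of the ARS-UCD1.2 build its methylation difference in percentage points and the p and q of their test. Neither the labels nor the headers say which group was subtracted, so signs are given as listed and are not tied to high or low fertility.

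A sperm tail is built around an axoneme of microtubules, which are polymers of tubulin, and axonemal dynein motors slide these microtubules to make the tail beat. Kinesins and intraflagellar transport proteins carry material along microtubules while a tail or cilium is assembled, and a centriole forms its base. Septins assemble into filaments, and some of them form the annulus, a ring in the sperm tail, while myosins are motors that move on actin. These structures are made in the testis before the sperm is released.

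The tables give no level or read count for a single sample, so the depth behind each value and the spread between samples are unknown. Each q-value below is the result of the authors' test. A locus is called when the authors' q is below 0.05 and the difference is at least 10 points in either direction. Labels do not say whether the samples come from separate bulls. In bulk DNA a change within sperm and a change in the share of other cells cannot be told apart, and since the tables hold no levels, the purity of the sperm was not checked.

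At single CpG sites these genes differed little between the groups, and 1 gene, kinesin family member 26B, held every call. By the authors' deposited table, calls fell on 2 of the 78 sites (2.56%), both positive, against 3.27% of the 3276 sites near any named gene on the same chromosomes and 5.94% of all sites listed. Positive calls alone made up 1.5% of the sites near named genes. By gene, 1 of 55 was called (1.82%), against 4.52% of the 1904 named genes, so the share of called members was no higher than this background. The median difference of the 78 sites was -0.44 points, against -0.30 points for all sites near named genes, and the median absolute differences were 2.09 and 2.38 points. In total 44 sites were negative, 29 positive and 5 exactly 0. Differences of at least 5 points were found at 12 sites (15.4%), against 23.0% near all named genes.

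**Figure D1:**
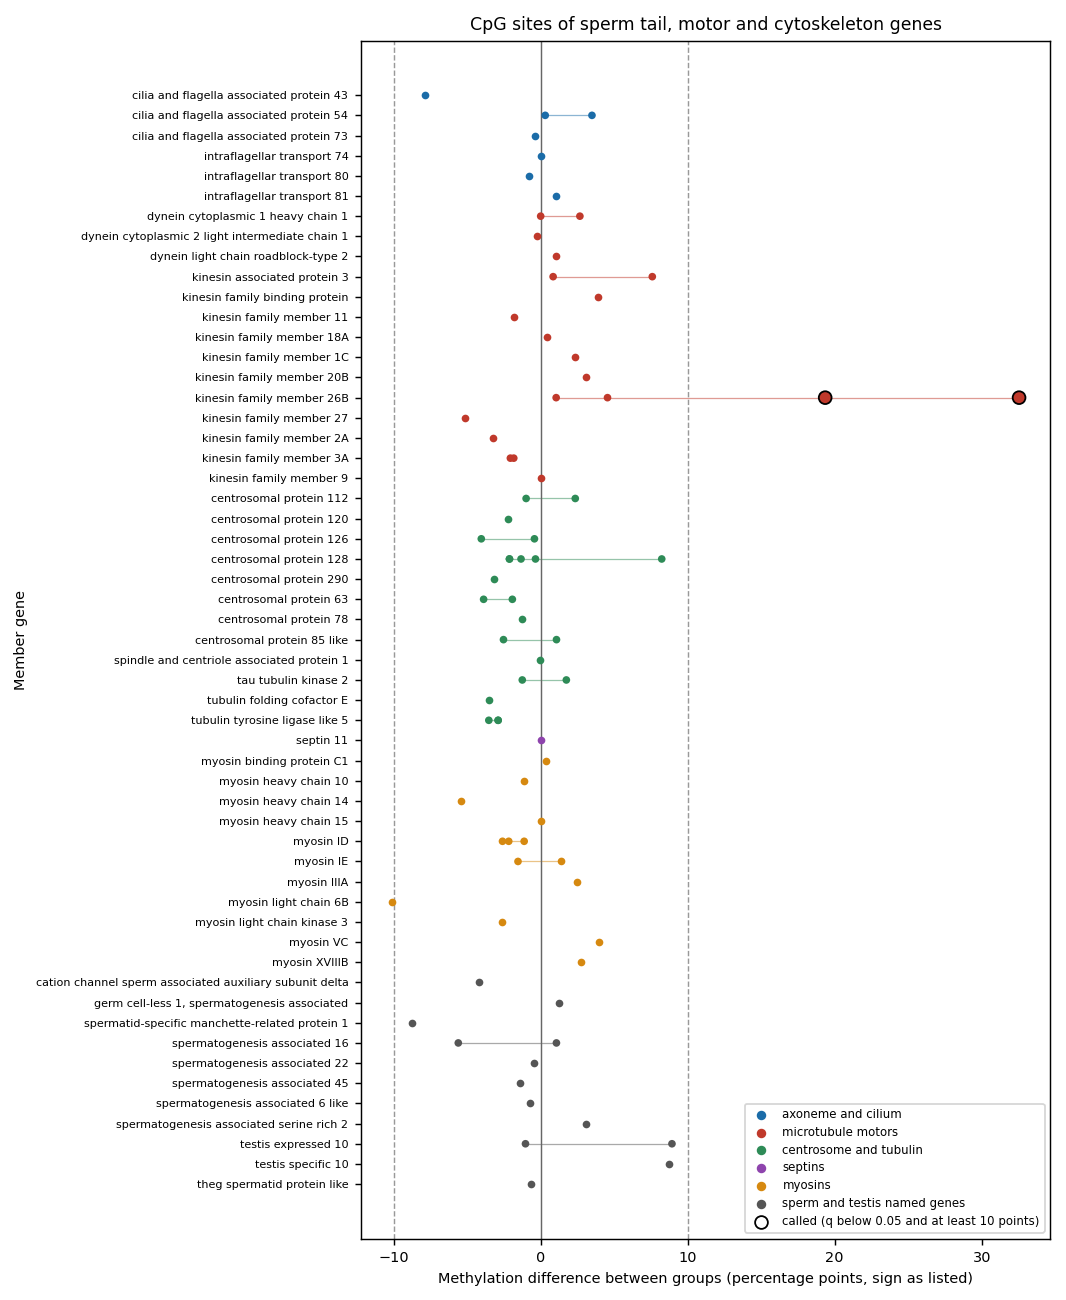
Each row is 1 of the 55 genes with a listed CpG site, each point is a site, and the horizontal axis is the methylation difference between groups in percentage points with the sign as listed. Colours give the role of the gene, dashed lines mark 10 points in either direction, and the outlined points are the 2 called sites of kinesin family member 26B at 19.4 and 32.5 points. Of the remaining sites, the myosin light chain 6B site at -10.1 points is the only one outside the dashed lines.

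Most genes rested on a single site, and genes with several sites often had both signs. Of the 55 genes, 39 had 1 listed site and 16 had 2 or more, with 5 sites at most. Among these 16, the differences were all negative in 5, all positive in 3 and of both signs in 7, and in 1 they were 0 and positive. Every site lay under 5 points in 44 genes and under 2 points in 22. Most member sites were intronic, 63 of 78 (80.8%) against 63.6% near all named genes, and 4 (5.13%) were in the authors' promoter class, against 15.8%. Among intronic sites alone the shares called were 3.17% for members and 2.64% for all named genes. Differences of at least 5 points made up 15.9% and 19.8% of these intronic sites. Their median absolute differences were 2.21 and 2.23 points, so the gaps to all named genes were smaller than over all sites.

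Kinesin family member 26B (ENSBTAG00000012715), an unusual kinesin known for signalling and cell adhesion more than for transport, had the 2 called sites. They lie 14 bp apart on the plus strand of chromosome 16, in an intron on positions 31706644 to 31710185, while the gene is on the minus strand. The site at position 31709333 differed by 19.4 points (q = 0.00601) and that at 31709347 by 32.5 points (q = 0.000483), per the authors' deposited table. The next listed site, 19 bp on at position 31709366, differed by 1.05 points (q = 0.440) per the authors' deposited table. One more site, at position 31784622 in another intron, stood at 4.55 points (q = 0.167) per the authors' deposited table. These 4 differences were positive, but the large ones fell on 2 neighbouring CpGs of the 3 listed within 10 kb of them. A further 2 intronic sites of the gene, more than 10 kb from a feature edge and so not members, stood at -0.15 points (position 31875427) and 0.38 points (position 31902224), per the authors' deposited table. No tile was listed within 10 kb of these calls. Without this gene, no member site was called per the authors' deposited table, although 4 of the 74 remaining sites had q below 0.05.

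Other motors and their partners had small differences of both signs. Without kinesin family member 26B, the group of dyneins and kinesins held 13 genes and 16 sites, of which 8 were positive, 6 negative and 2 at 0, with a median of 0.20 points. With its 4 sites the median was 0.95 points. Kinesin associated protein 3, which joins the kinesin-2 motor to its cargo, had 2 intronic sites 62 bp apart on chromosome 16, at positions 37621467 and 37621529, with differences of 7.59 points (q = 0.213) and 0.85 points (q = 0.840) per the authors' deposited table. Its motor partner, kinesin family member 3A, had 2 sites at -2.06 and -1.83 points per the authors' deposited table, and neither was called. Dynein cytoplasmic 1 heavy chain 1, the force-making subunit of the main cytoplasmic dynein, had sites at 0 and 2.67 points (q = 0.821 and 0.255) on chromosome 21 per the authors' deposited table. Kinesin family member 27 stood at -5.13 points (q = 0.110) per the authors' deposited table. No axonemal dynein gene was among the members.

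Proteins of the axoneme and of intraflagellar transport were represented by 6 genes with 7 sites, none called. The lowest value was that of cilia and flagella associated protein 43 (ENSBTAG00000014574), a protein of the axoneme, at -7.87 points (q = 0.0398, chromosome 26, position 24747431, intron) per the authors' deposited table. Its q passed 0.05 but its difference fell short of 10 points. Cilia and flagella associated protein 54, also a protein of the axoneme, had intronic sites at 3.49 points (q = 0.147, chromosome 5, position 60950368) and 0.31 points (q = 0.814, position 60993768) per the authors' deposited table. The 3 intraflagellar transport proteins stood at -0.78 points (number 80), 0 points (number 74) and 1.08 points (number 81), per the authors' deposited table. Cilia and flagella associated protein 73 had a site in its 3′ untranslated region at -0.41 points per the authors' deposited table.

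Centrosome and tubulin genes mostly had small negative differences, and none was called. Of their 23 sites in 12 genes, 19 were negative (82.6%), against 52.4% near all named genes, with a median of -1.93 points. Several of these sites share a gene, so they are not independent. Centrosomal protein 128 (ENSBTAG00000021708), a protein of the mother centriole, had the most sites of any member in the table of sites, 5 of them spread from position 91770171 to 92236566 of chromosome 10. Of these, 4 lay between -2.13 and -0.35 points, and the fifth, at intronic position 91797085, stood at 8.24 points (q = 0.0424), per the authors' deposited table. This site is therefore opposite in sign to the others of its gene. Tubulin tyrosine ligase like 5, an enzyme that adds glutamate chains to tubulin, had 3 sites at -3.53, -2.89 and -2.90 points, with q between 0.467 and 0.506, per the authors' deposited table. Centrosomal protein 126 had sites at -4.04 points (q = 0.191) and -0.42 points (q = 0.841) on chromosome 15 per the authors' deposited table.

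Myosin genes held 1 of the 3 member sites with at least 10 points, but it did not pass the q threshold. Myosin light chain 6B (ENSBTAG00000031217), a light chain that binds the neck of myosin, had a promoter site 2454 bp from its 5′ untranslated region at -10.1 points (q = 0.351, chromosome 5, position 57170479) per the authors' deposited table. Myosin heavy chain 14, a non-muscle myosin, stood at -5.40 points (q = 0.442) per the authors' deposited table. Myosin ID, a single-headed myosin, had 3 intronic sites on chromosome 19, at -2.17, -1.12 and -2.60 points per the authors' deposited table, with q between 0.313 and 0.453. Over the 14 myosin sites 8 were negative and 5 positive, with a median of -1.14 points, and no site had q below 0.05.

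Of the 13 genes named for sperm or testis, 11 had a listed site. Among these 11, 2 had a site with q below 0.05, and these sites had opposite signs. By site this was 2 of 13 (15.4%), against 5.04% near all named genes, a share that rests on few sites. Spermatid-specific manchette-related protein 1 (ENSBTAG00000008376) is named for the manchette, the microtubule skirt that shapes the sperm head. Its intronic site at position 75751669 of chromosome 8 stood at -8.75 points (q = 0.0375) per the authors' deposited table. Testis specific 10 (ENSBTAG00000018991), a protein of the sperm tail sheath, had a site 1690 bp downstream of an exon at 8.75 points (q = 0.0452, chromosome 11, position 4202142) per the authors' deposited table. Testis expressed 10 had sites at 8.93 points (q = 0.246) and -1.03 points (q = 0.771) per the authors' deposited table. The auxiliary subunit delta of the CatSper channel, which admits calcium into the sperm tail, stood at -4.17 points (q = 0.229) per the authors' deposited table.

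Over all members, 6 of 78 sites had q below 0.05 at any difference (7.69%), against 5.04% near all named genes and 8.11% of all sites listed. These were the 2 sites of kinesin family member 26B and the 4 sites of cilia and flagella associated protein 43, centrosomal protein 128, spermatid-specific manchette-related protein 1 and testis specific 10. With differences of 7.87 to 8.75 points in either direction, these 4 sites lay just below the size needed for a call. They made up 5.41% of the 74 member sites left without kinesin family member 26B.

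The differences listed at close neighbours did not always share a sign. In the pairs of opposite sign no site had q below 0.05, so these signs do not show that neighbours truly differed. In 9 pairs of consecutive sites of 1 gene, 2 to 62 bp apart and each on 1 strand, 5 pairs had the same sign. The pair of dynein cytoplasmic 1 heavy chain 1, at 0 and 2.67 points, was not counted among these 5, although its signs are not opposite. The pairs of kinesin family member 26B share their middle site. The gap between the values of a pair had a median of 3.34 points and ran from 0.0088 points, in tubulin tyrosine ligase like 5, to 31.5 points, in kinesin family member 26B. Myosin IE had 1.42 and -1.54 points (q = 0.618 and 0.723) at sites 30 bp apart, per the authors' deposited table. Centrosomal protein 85 like had -2.53 and 1.08 points (q = 0.255 and 0.441) at sites 50 bp apart, per the authors' deposited table. The opposite strand of the CpG was listed for 0 of the 78 member sites, so no site could be set against its own second strand.

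**Figure D2:**
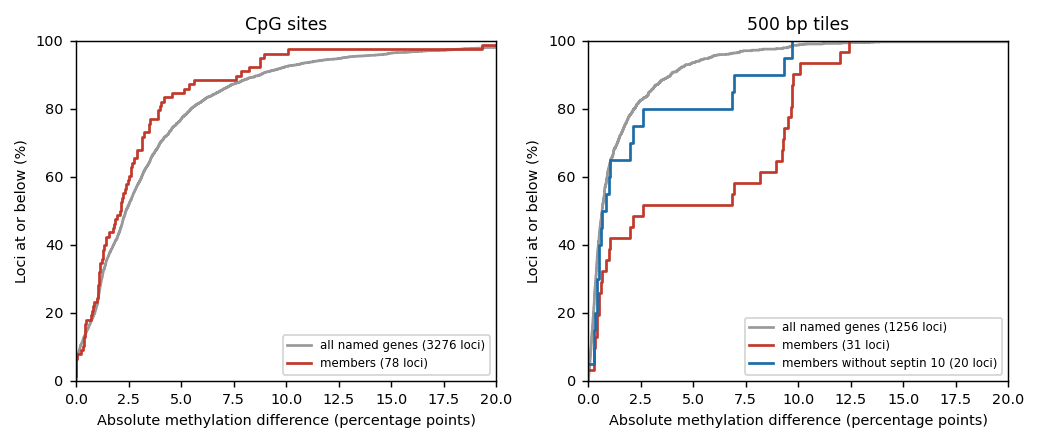
The vertical axis is the percentage of loci with an absolute methylation difference at or below the value on the horizontal axis (percentage points, drawn to 20), for CpG sites on the left and tiles on the right. Member sites follow the sites of all named genes, with medians of 2.09 and 2.38 points, while member tiles lie to the right (2.59 against 0.65 points) and have a median of 0.74 points once septin 10 is left out. Even then 4 of 20 member tiles reach 5 points, against 6.45% of tiles near all named genes and 15.4% of all tiles listed. These 4 overlap and belong to 1 gene, spermatogenesis associated 1, so they are not separate measurements.

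Among tiles, septin 10 and spermatogenesis associated 1 had a run of negative differences, and the other 7 genes had differences of at most 2.59 points. By the authors' deposited table, calls fell on 3 of the 31 member tiles (9.68%), all negative and all in septin 10, against 1.27% of the 1256 tiles near named genes and 2.78% of all tiles. All 16 called tiles near named genes were negative, so the share for negative calls alone is also 1.27%. By gene, 1 of 9 was called (11.1%), against 1.23% of 407, and with 9 genes a single one decides this share. The 1256 tiles and 407 genes include the members. Without the members, 1.06% of 1225 tiles and 1.01% of 398 genes were called. The 3 calls adjoin or overlap and make up 1 region. The median of the 31 tiles was -2.59 points, and without septin 10 it was 0.29 points over 20 tiles, against -0.23 points near all named genes.

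Septin 10 (ENSBTAG00000022461), which builds septin filaments, was listed with 11 tiles, each starting 100 bp after the one before, from position 44298601 to 44300100 of chromosome 11. They lie near the start of an intron of 13135 bp (positions 44298402 to 44311536) of this plus-strand gene. All 11 were negative, from -12.4 to -8.18 points with a median of -9.65 points, and the largest q among them was 9.30e-15, per the authors' deposited table. The called tiles were the first, at -10.1 points (q = 7.64e-38), and the sixth and the seventh, at -12.0 points (q = 7.00e-30) and -12.4 points (q = 4.64e-25), per the authors' deposited table. The tile with the smallest q, 2.21e-48, was the third, with a difference of -9.72 points per the authors' deposited table. Taken without overlap, from the first on, the tiles gave -10.1, -12.0 and -8.18 points per the authors' deposited table, so all 3 separate stretches of 500 bp had the same sign. Neighbouring tiles share CpGs, and the 11 tiles are not separate measurements. No single CpG site was listed within 10 kb of this run, so the tiles could not be split into their sites.

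Spermatogenesis associated 1 (ENSBTAG00000020010) had 4 overlapping tiles from position 59558301 to 59559100 of chromosome 3, in an intron of a minus-strand gene, and none was called. Their differences were -9.69, -9.31, -6.93 and -6.82 points, in order along the chromosome, with q between 2.87e-27 and 4.53e-14, per the authors' deposited table. The first fell short of a call by its size alone. No site on chromosome 3 was listed for any gene, so this run could not be set against single sites.

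**Figure D3:**
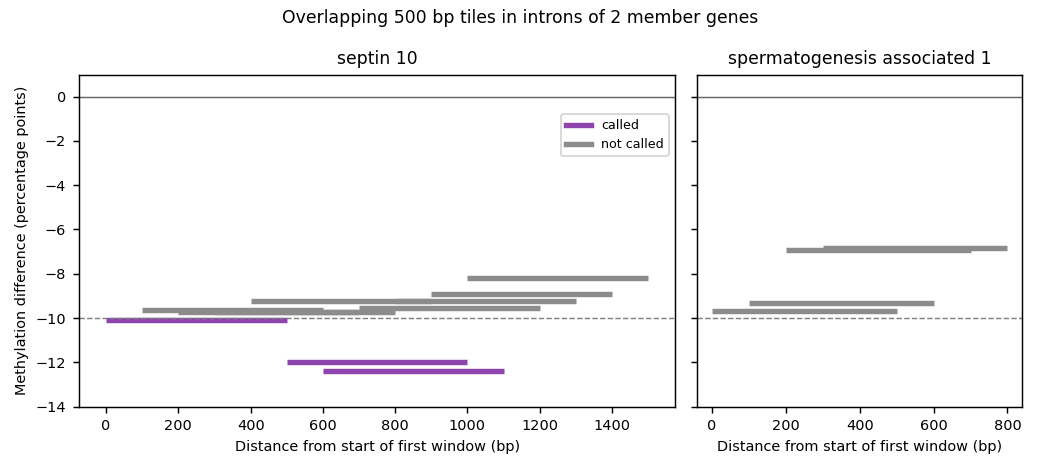
Each bar is a tile of 500 bp, placed along the horizontal axis by its distance in bp from the start of the first tile listed for septin 10 (left) or spermatogenesis associated 1 (right), at its methylation difference in percentage points. The dashed line marks -10 points. All 11 and all 4 bars lie below 0, and the 3 called tiles of septin 10 lie below the dashed line.

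The remaining tiles showed small differences, some with a small q. Unc-45 myosin chaperone B, which folds muscle myosin, had 3 overlapping intronic tiles, all negative, with the largest differences at -1.99 and -2.59 points (q = 0.00174 and 4.47e-05) on chromosome 19 per the authors' deposited table. A tile that starts in the 5′ untranslated region of spermatogenesis associated 6 like stood at 2.11 points with q = 2.22e-13 per the authors' deposited table. Testis associated actin remodelling kinase 1, a kinase of actin regulation, had 4 promoter tiles between 0.32 and 0.63 points per the authors' deposited table. Tubulin gamma 1, which starts new microtubules, had a tile at -0.015 points (q = 0.369) per the authors' deposited table, and centrosomal protein 19 had tiles at 0.25 and -0.28 points. The single tile of myosin IB stood at 0.58 points per the authors' deposited table, with p = 0.548 and q = 0.129 in the authors' test, so its q lay below its p. Of the 31 member tiles, 23 had q below 0.05 (74.2%), against 61.1% near all named genes and 71.8% of all tiles listed. Of these 23, 20 lay under 10 points and 11 were the overlapping tiles of septin 10. Without septin 10, 12 of 20 member tiles had q below 0.05, a share just below that near all named genes.

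The 2 genes in both tables allowed a limited comparison. Spermatogenesis associated 22 (ENSBTAG00000015763), a meiotic recombination protein, had 4 tiles over its 5′ untranslated region, on positions 24212201 to 24213000 of chromosome 19. Their differences were 1.03, 0.85, 0.51 and 0.51 points per the authors' deposited table, with q between 0.000509 and 0.0765. The CpG site at position 24212600, inside all 4 tiles, stood at -0.45 points (q = 0.844) per the authors' deposited table, so the site and the tiles around it differ in sign at values near 0. For spermatogenesis associated 6 like the site is in the 3′ untranslated region, away from the tile, and stood at -0.76 points (q = 0.830) per the authors' deposited table. Septin 11, the only septin in the table of sites, had a site listed at 0 points (q = 0.820) per the authors' deposited table.

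**Figure D4:**
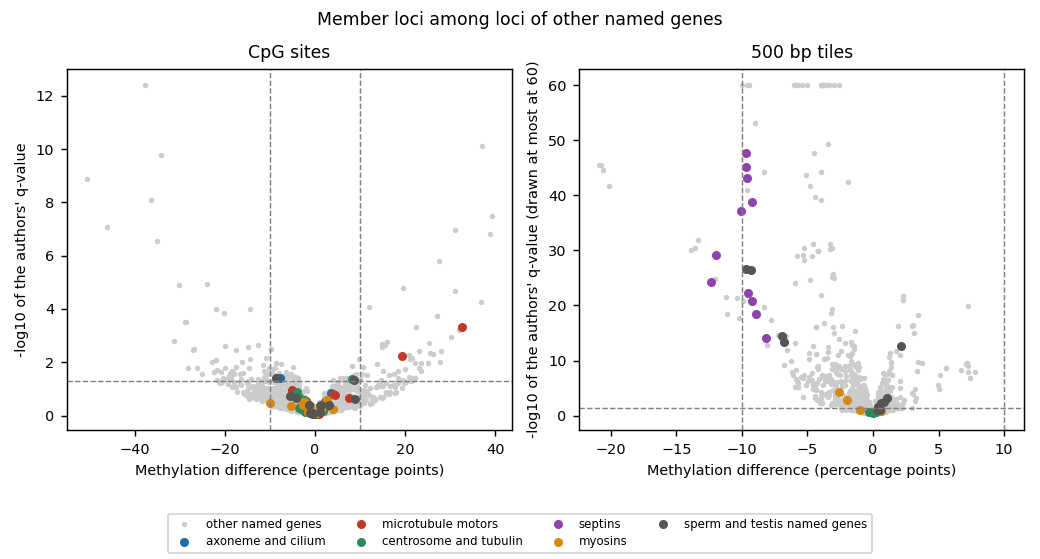
The horizontal axis is the methylation difference in percentage points and the vertical axis is -log10 of the authors' q-value, for CpG sites (left) and tiles (right). Coloured points are member loci, grey points are loci of other named genes on chromosomes 1 to 29, and dashed lines mark q of 0.05 and 10 points. Values are drawn at most at 60, which holds down 20 grey tiles and 0 member tiles. The 2 called sites of kinesin family member 26B are the member sites farthest to the right, and among member tiles those of septin 10 and spermatogenesis associated 1 lie farthest to the left.

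The limit of 10 kb left out the largest differences found at genes with such names. The authors' distance runs to an edge of the closest feature also for loci inside it, so 8 sites deep inside long introns of 6 such genes lay beyond the limit. In all, 1 of these was called per the authors' deposited table, a site in a 45810 bp intron of CFAP20 domain containing (ENSBTAG00000020373) at -33.6 points (q = 3.56e-05, chromosome 22, position 42574713), 19833 bp from the intron's edge. Among the others, a site of centrosomal protein 85 like stood at -7.69 points (q = 0.0419, chromosome 9, position 32383513), a larger difference than at its 2 member sites, per the authors' deposited table. A further site of centrosomal protein 128, at position 91975536, stood at -3.53 points (q = 0.253), below the range of its member sites, per the authors' deposited table. The second listed site of CFAP20 domain containing, at position 42391061, stood at 1.02 points (q = 0.673) per the authors' deposited table. Outside genes, 26 sites lay more than 10 kb away, and 1 was called. It lies 12377 bp from an exon of C2 domain containing 3 centriole elongation regulator (ENSBTAG00000054229), which lengthens centrioles, and stood at -48.0 points (q = 7.20e-16, chromosome 15, position 53540242) per the authors' deposited table. Of all sites listed, 5.94% were called, and the share among all sites beyond 10 kb is not given here. The calls, 1 of 8 and 1 of 26, therefore do not show that such genes were called more often than others. The member loci nearest to the limit, at 8490, 8373 and 8154 bp, had differences of 1.07, 4.55 and -1.34 points per the authors' deposited table. Just beyond it, at 10875 and 11701 bp, sites in spermatogenesis associated 17 and kinesin associated protein 3 stood at 0.66 and -2.41 points per the authors' deposited table.

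A further set was meant to hold other cytoskeleton genes, taken by words in names such as actin, ankyrin, formin, microtubule, spectrin and coiled-coil domain containing. Most of the words, though not actin, were also matched inside longer words (formin is part of transforming). The genes of this set are therefore not all of the cytoskeleton. The set comprised 64 genes with 95 sites and 14 genes with 35 tiles. Calls fell on 3 of the 95 sites (3.16%, against 3.27% near all named genes), 2 negative and 1 positive, per the authors' deposited table, with a median over all 95 of 0.69 points. None of the 35 tiles was called (0 of 35, against 1.27%), and 14 had q below 0.05 in the authors' test (40.0%, against 61.1%). The called genes were B cell scaffold protein with ankyrin repeats 1, a signalling adaptor that the word ankyrin brought in (-50.6 points, q = 1.29e-09), formin 1, which extends actin filaments (14.8 points, q = 0.00200), and microtubule associated protein 1B (-10.1 points, q = 0.0195), per the authors' deposited table.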

How the data were processed

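The 62 genes, the word lists and the thresholds were chosen with earlier results of these data known. Trimmomatic, Bismark, methylKit and the build ARS-UCD1.2 are named in the submitters' processing notes, with no version, role or setting. For each locus the authors deposited the p-value and q-value of their test, a signed methylation difference (a score here, in percentage points), and the distance in bp to the closest feature. The q-value adjustment by the authors is not given in the sources used here. In the deposited tables q rose with p within each of 24 chromosomes (sites) and 27 (tiles), with 0 exceptions, but not across chromosomes. Equal p-values can therefore have different q-values on different chromosomes.

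Loci were filtered and counted in Python 3.11.15 with pandas 2.3.3, scipy 1.17.1 for intervals and matplotlib 3.10.9, and the code was tested on simulated data. Tiles of 500 bp start every 100 bp. The described genes are all called members and, in each of 6 role groups, the 2 with the most loci and the 2 with the largest absolute difference. Others were added after their values were seen, to complete a role. No new test between groups was run, since values per sample were not analysed here, and no sequences were used. No site was listed on chromosomes 2, 3, 4, 12, 23 or 27, and no tile on 12, 23 or 27, so these chromosomes were not covered. The alternatives changed the thresholds, the distance, the words, the adjustment of p and the counting unit.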

Additional observations from a re-analysis of the deposited data

How the results depend on the processing

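The counts of called loci depended on the size threshold and on septin 10. At 5 points, 6 sites in 5 genes and 15 tiles in 2 genes were called. At 20 points, 1 site and 0 tiles in 0 genes were called. With loci up to 50 kb away, 4 sites in 3 genes were called, and with loci inside a gene taken at any distance from the edge (chosen after seeing the data) 3 sites in 2 genes. Shares over all loci are not given at these other settings, so these counts do not show whether members were called more or less often than other genes. Merged, the called tiles were 1 region. Without septin 10, also chosen after seeing the data, 0 tiles were called, their median difference became 0.29 points, and 12 tiles had q below 0.05. With q below 0.01, a distance of at most 5 kb, loci inside features only, the words sperm and testis left out, the X chromosome added, or p-values adjusted by the Benjamini-Hochberg method over the listed loci, the counts were 2 sites and 3 tiles as before. A median was taken to have moved when it changed sign or left its 95% binomial interval, which was -1.27 to 0 points for sites and -9.25 to 0.32 points for tiles. The median of tiles ran from -9.23 points (inside features) to 0.29 points, and with 1 median per gene it was -0.015 points. These intervals treat overlapping tiles as independent. The depth of each value is unknown, no sample could be left out in turn, and no paired analysis was possible because the labels give the groups no shared numbers and the tables hold no values per sample.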
